A study of Homo sapiens with 16 samples.

Results

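Distal p65 regions of SW480 cells that were bound with ERβ alone are described here. They were chosen from 16 coverage tracks of p65 ChIP-Seq in 2 human colorectal adenocarcinoma cell lines, HT29 and SW480. A 200-bp bin counted as bound in a group when, in at least 2 of its 3 ChIP libraries, its mean tag density was 2 or more, at least 4 times that of the group's own input (with the input taken as no lower than 0.35) and at least 4 times that of the surrounding 10 kb. Bound bins within 200 bp of each other were joined over the groups, which gave 6238 regions on chromosomes 1 to 22 and X. Of these, 5379 were bound in SW480 ERβ, 1013 in SW480 mock, 1687 in HT29 ERβ and 2473 in HT29 mock. A total of 3230 were bound in SW480 ERβ and in no other group. The 2390 of these whose centre lay over 1 kb from every protein-coding transcription start site (TSS) are the members, and the other 840 are promoter regions. The signal of all 4 groups chose the members, so their difference between SW480 ERβ and SW480 mock is given as a description and supports nothing.

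Each line was stably transfected with ERβ or with an empty vector, here called mock, and each of the 4 groups had 3 ChIP libraries and 1 input library. All ChIP cells, mock included, were given TNFα at 30 ng/ml for 30 minutes, fixed with DSG for 45 minutes and with 1% formaldehyde for 10 minutes, and precipitated with an antibody to p65. No ChIP library without TNFα was analysed here, so a bound region cannot be called TNFα-induced. Whether each transfected line was a clone or a pool, and whether the 3 ChIPs of a group, named biological replicates by the study, came from separate cultures, is not given in the sources used here, and the p-values then measure only the spread between libraries.

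p65, the product of RELA, is a subunit of NFκB that carries a strong transactivation domain. In resting cells it is held in the cytoplasm by IκB proteins. TNFα leads to degradation of IκB, and p65 then enters the nucleus, where it binds κB elements as a dimer, often at enhancers far from promoters where other factors such as AP-1 sit. ERβ, encoded by ESR2, is an estrogen receptor of the nuclear receptor family, which can bind DNA itself or act through other bound factors.

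Tag density over ESR2 coding exons was 0.805, 1.01 and 0.868 in the SW480 ERβ libraries against 0.482, 0.528 and 0.443 in SW480 mock, and 1.83, 1.30 and 1.09 in HT29 ERβ against 0.262, 0.340 and 0.272 in HT29 mock. The ChIP groups did not overlap in either line. In the inputs the same density was 0.560 with ERβ and 0.511 without in SW480, and 0.530 and 0.288 in HT29, so the SW480 inputs differed little. Intron density was 0.331 to 0.347 in the 6 SW480 ChIP libraries, and 0.254 to 0.273 in HT29 ERβ against 0.236 to 0.252 in HT29 mock. Over 1-Mb bins, every library correlated best with an input of its own line. Density is scaled to a fixed total in the tracks, so the depth of each library is unknown from them and no interval from read counts is given. Replicate 1 of SW480 ERβ stood apart from replicates 2 and 3. At regions bound in all 4 groups its median density was 4.32, against 8.20 and 7.16 in the other 2 and 3.37 to 3.81 in SW480 mock. In HT29, replicate 1 was the highest in both groups, at 6.35 against 3.16 and 3.02 in ERβ and 7.21 against 3.58 and 3.87 in mock. The results below are therefore also given by library.

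The sequences of 9 members follow, chosen after their values were seen to show the κB, AP-1 and RUNX motifs on which the results turn. Each is 200 bases of GRCh38 about the summit, the highest 10 bp of the mean SW480 ERβ signal, read 5′ to 3′ on the plus strand. Capitals mark matches on either strand to the κB consensus, to the AP-1 element TGANTCA with C or G at N, or to the RUNX element TGTGGTN with C or T at N. Matches to κB shifted by 1 base run together.
The first 3 held κB matches alone, in PRKAR2A (regulatory subunit of protein kinase A), in WNT10A (a Wnt ligand) and upstream of CCL2 (a chemokine that draws monocytes).
PRKAR2A, chr3:48770146-48770345: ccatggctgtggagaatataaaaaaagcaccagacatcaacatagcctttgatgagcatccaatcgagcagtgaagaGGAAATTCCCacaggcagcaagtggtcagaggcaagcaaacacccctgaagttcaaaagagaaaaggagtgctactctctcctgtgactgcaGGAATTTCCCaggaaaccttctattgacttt
WNT10A, chr2:218892396-218892595: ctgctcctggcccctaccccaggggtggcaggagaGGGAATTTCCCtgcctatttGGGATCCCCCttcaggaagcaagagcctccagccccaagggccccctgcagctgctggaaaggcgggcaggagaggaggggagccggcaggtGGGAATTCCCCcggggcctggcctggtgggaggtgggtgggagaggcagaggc
CCL2, chr17:34252576-34252775: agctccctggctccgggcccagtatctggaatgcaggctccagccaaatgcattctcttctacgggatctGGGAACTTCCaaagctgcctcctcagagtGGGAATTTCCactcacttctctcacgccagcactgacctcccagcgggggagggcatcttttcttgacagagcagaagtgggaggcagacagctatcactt
The next 3 held κB and RUNX matches. They lay 18116 bp downstream of the TSS of TRIM56 (a ubiquitin ligase of antiviral signalling) and in UBASH3A and ACOXL. From the last 2, TFF1 and BCL2L11 were the listed genes in reach.
TRIM56, chr7:101104866-101105065: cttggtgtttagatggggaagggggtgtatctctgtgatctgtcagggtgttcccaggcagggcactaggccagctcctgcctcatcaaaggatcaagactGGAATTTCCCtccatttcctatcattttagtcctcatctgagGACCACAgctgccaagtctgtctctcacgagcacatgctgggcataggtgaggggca
UBASH3A, chr21:42411976-42412175: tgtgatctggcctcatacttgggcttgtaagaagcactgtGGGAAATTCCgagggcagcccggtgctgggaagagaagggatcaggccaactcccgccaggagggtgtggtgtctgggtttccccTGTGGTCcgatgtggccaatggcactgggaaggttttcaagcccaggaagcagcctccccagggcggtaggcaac
ACOXL, chr2:111071806-111072005: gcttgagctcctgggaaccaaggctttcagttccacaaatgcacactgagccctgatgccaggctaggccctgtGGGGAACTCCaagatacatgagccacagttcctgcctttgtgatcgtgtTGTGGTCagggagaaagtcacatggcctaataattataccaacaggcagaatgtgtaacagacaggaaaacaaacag
The last 3 held RUNX alone near MMADHC (154023 bp away) and near MAF (287164 bp away), and κB with AP-1 upstream of RUNX3. Here and below, a member called near a gene has that gene as its nearest by TSS, at whatever distance.
MMADHC, chr2:149741626-149741825: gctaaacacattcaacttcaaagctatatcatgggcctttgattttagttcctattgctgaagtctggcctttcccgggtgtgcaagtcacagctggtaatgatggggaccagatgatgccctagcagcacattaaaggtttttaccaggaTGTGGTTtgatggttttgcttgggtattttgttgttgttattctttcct
MAF, chr16:79887826-79888025: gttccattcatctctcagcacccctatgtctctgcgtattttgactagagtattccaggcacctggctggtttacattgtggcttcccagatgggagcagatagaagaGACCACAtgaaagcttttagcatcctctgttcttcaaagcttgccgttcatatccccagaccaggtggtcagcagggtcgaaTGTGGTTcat
RUNX3, chr1:24970476-24970675: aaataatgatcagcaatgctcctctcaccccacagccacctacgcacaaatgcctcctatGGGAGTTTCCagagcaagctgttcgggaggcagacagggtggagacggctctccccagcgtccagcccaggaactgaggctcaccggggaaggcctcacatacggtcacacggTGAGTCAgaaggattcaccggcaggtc

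The members carried moderate p65 signal in SW480 ERβ and a low but visible signal in the other groups, HT29 ERβ included. Over all 2390, the median density per library was 2.10, 3.43 and 3.18 in SW480 ERβ, 0.995, 1.15 and 1.35 in SW480 mock, 0.894, 0.639 and 0.641 in HT29 ERβ, and 1.11, 0.689 and 0.749 in HT29 mock. The 4 inputs had medians of 0.370 to 0.564. In every SW480 ERβ library the median was above that of each of the other 9 ChIP libraries, and the lowest of the 3 was replicate 1. For comparison, at the 353 distal regions bound in all 4 groups the medians were 4.37, 8.09 and 7.29 in SW480 ERβ and 3.41, 3.73 and 3.87 in SW480 mock. The group medians were 2.89 for the members in SW480 ERβ and 3.64 for these shared regions in SW480 mock. Of the members, 1855 were 1 bin wide, 515 were 2 bins wide and 20 were wider.

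**Figure D1:**
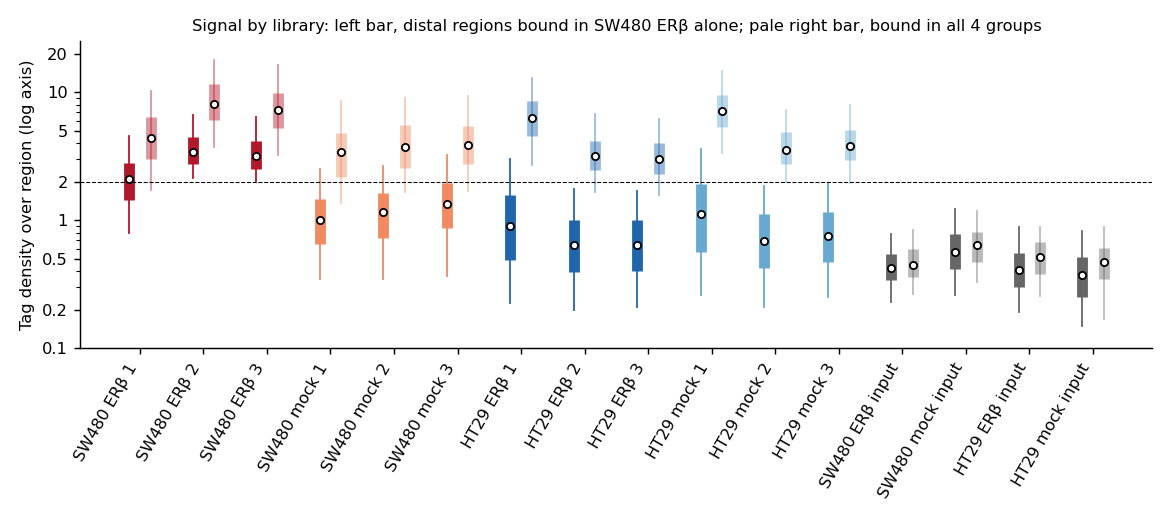
Tag density over each region by library, on a log axis. For each library the left bar is the 2390 distal regions bound in SW480 ERβ alone and the pale right bar the 353 distal regions bound in all 4 groups. Circles are medians, thick bars span the middle quartiles, thin lines the 5th to 95th percentiles, and the dashed line is the minimum density of 2. At the left bars only the SW480 ERβ medians, 2.10 to 3.43, lie above the line.

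In profiles about the summit, the signal of the members rose to 2.87, 5.13 and 4.76 in the SW480 ERβ libraries and to 1.38, 1.51 and 1.83 in SW480 mock. The ratio of the summit to the signal over 800 bp away was 5.51 to 9.31 in SW480 ERβ and 2.78 to 3.68 in SW480 mock. In HT29 it was 2.01 to 3.86 over the 6 libraries, highest in replicate 1 of each group, and in the inputs 1.09 to 1.30. Width at the midpoint of the height was 200 to 240 bp in SW480 ERβ and 300 to 360 bp in HT29. All 9 ChIP libraries of the other groups had a peak above their own background at these summits, and the 4 inputs had little. The highest input, that of SW480 mock, was also the one with the largest rise, and this input sets the limit for SW480 mock binding.

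**Figure D2:**
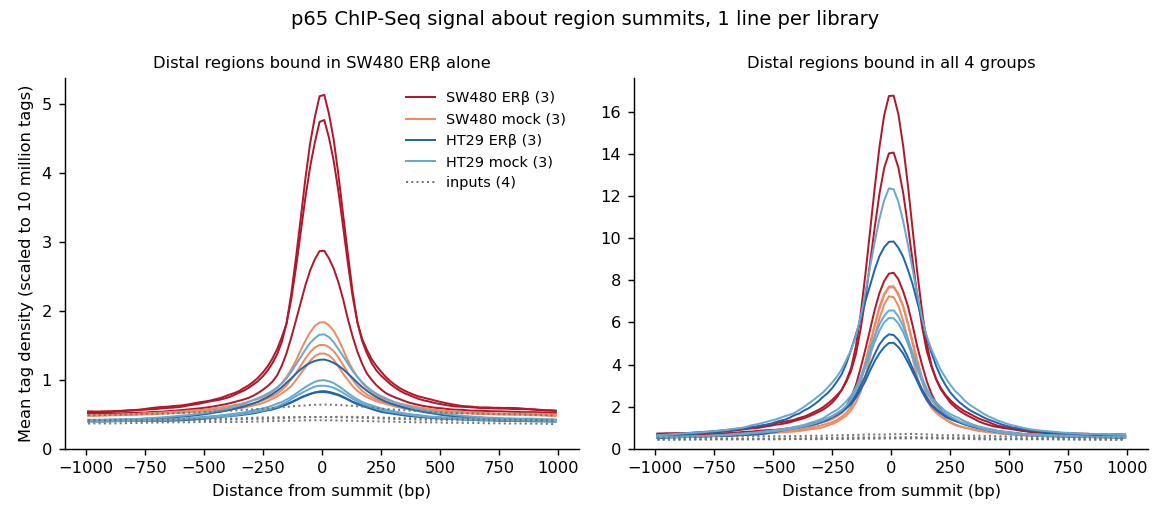
Mean tag density against distance from the summit in bp, 1 line per library, with inputs dotted. Left, distal regions bound in SW480 ERβ alone, where the SW480 ERβ lines reach 2.87 to 5.13 and SW480 mock 1.38 to 1.83. Right, distal regions bound in all 4 groups, where replicates 2 and 3 of SW480 ERβ also lie above the other libraries, at 16.8 and 14.0. Summits are of the SW480 ERβ mean at left and of the mean of all 4 groups at right.

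"Alone" is therefore a statement about limits. The rule score of a group is the ratio of its signal to the strictest of the 3 limits, taken in the second highest of its libraries, so that a score of 1 or more is bound. Its median over the members was 1.30 in SW480 ERβ, 0.452 in SW480 mock, 0.324 in HT29 ERβ and 0.378 in HT29 mock. Every other group scored under 0.5 at 956 members and under 0.75 at 1852 (77.5%), while at 178 (7.45%) some other group reached 0.9 or more. All 3 SW480 ERβ libraries passed at 926 members (38.7%). By library, 1115 members passed in replicate 1, 2333 in replicate 2 and 2258 in replicate 3. In the other groups 229 members passed in replicate 3 of SW480 mock, 245 in replicate 1 of HT29 ERβ and 439 in replicate 1 of HT29 mock, and each of the remaining 6 libraries passed at 7 to 55. No library of any other group passed at 1655 members (69.2%).

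The input had a part in the calls for both SW480 groups. The median input density at the members was 0.564 in SW480 mock and 0.426 in SW480 ERβ. With the limits on density and on surroundings alone, 168 members would have been bound in SW480 mock too, and with the SW480 ERβ input in place of its own, 126 (5.27%) would have been. With the mock input of each line used for all its libraries, the rule gave 1941 members, which included 1859 (77.8%) of those described here. SW480 ERβ was then bound at 4383 regions in place of 5379, and SW480 mock at 1013 as before. HT29 ERβ was bound at 1763 in place of 1687. The SW480 mock mean was 2 or more at 323 members. Near the line, 270 members had a SW480 ERβ score less than 0.05 above 1, and 310 distal bins bound in no group had a score from 0.95 to just under 1. The 3 lowest members, near TMEM67 and ALDH1A3 and in FRMD6, scored 1.0002, 1.0006 and 1.0008, and the 3 bins next below, in LYPD6B, near IL10RA and in SLC2A7, scored 0.9999, 0.9997 and 0.9997. The highest scores in another group were 0.9999 in HT29 mock near AURKB, 0.9998 in HT29 mock in FDXR and 0.9988 in SW480 mock upstream of IGFBP3.

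At the members the mean difference between SW480 ERβ and SW480 mock was 0.82 on the scale of log2(density + 1), as the median over regions. The limma fit over all 6238 regions, in which the rule had used this contrast, placed 1631 members (68.2%) higher and 0 lower at a Benjamini-Hochberg adjusted p under 0.05, against 54.9% of all regions higher and 0.0160% lower. With libraries scaled at regions bound in all 4 groups it placed 486 members (20.3%) higher, against 11.4%, and with quantile normalization 140 (5.86%) higher and 6 lower, against 3.08% and 0.882%. With 1 library left out, 942 to 2267 members were placed higher, with 942 without SW480 ERβ replicate 3, 944 without SW480 mock replicate 1, 1006 without SW480 ERβ replicate 2 and 1030 without SW480 mock replicate 2. The lowest SW480 ERβ library lay above the highest SW480 mock library at 1537 members (64.3%), against 55.0% of all regions. These counts describe the chosen members and are no test of them. The median of all regions was 0.68, and that of distal regions bound in all 4 groups 0.62. Of the 6238 regions 5379 were bound in SW480 ERβ, so these medians are not independent of the choice of regions, and with quantile normalization they were -0.05 and -0.09. When libraries were scaled to equal medians at regions bound in all 4 groups, the median was 0.30 over the members, 0.14 over all regions and -0.03 over distal regions bound in all 4 groups. With that scaling the rule gave 879 members, which included 859 (35.9%) of those described here.

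Members were also chosen again with 1 replicate number left out of every group, and the SW480 libraries of that number were then compared. In all 4 groups both remaining libraries had to pass. Binding in SW480 ERβ was thus harder to reach than for the members, but being unbound in the other groups was easier. Of 2517 regions chosen without replicates 1, 86.1% had more signal in SW480 ERβ 1 than in SW480 mock 1, against 83.2% of all regions bound by the same libraries, and 43.4% differed 2-fold or more, against 33.3%. Of 1101 chosen without replicates 2, 99.6% had more signal in ERβ, against 97.5%, and 82.7% differed 2-fold, against 68.1%. Of 1194 chosen without replicates 3, these values were 98.7% against 95.7% and 67.7% against 53.7%. The median densities in the left-out pair were 2.04 and 1.07 in replicate 1, 4.39 and 1.36 in replicate 2, and 3.82 and 1.54 in replicate 3. In the distal regions bound in all 4 groups by the same libraries, 69.7%, 100% and 99.6% had more signal in ERβ and 11.8%, 63.5% and 32.4% differed 2-fold in replicates 1, 2 and 3. These sets were chosen anew and are not the 2390 members, and all regions include them. The direction held in most of each set, but also in most of all regions and of the distal regions bound in all 4 groups. It was therefore not particular to the chosen sets. The difference was smallest in replicate 1. There is 1 library a side here, so no test was made.

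The members with the highest SW480 ERβ mean lay in WNT10A, GAS6 (a ligand of the AXL kinase), PRKAR2A and ASPSCR1, between genes nearest to EFNB2 (an ephrin ligand), IGFBP3 (which binds insulin-like growth factors) and FOXL3, and, in 3 cases, 147056 to 606256 bp downstream of MYC, the oncogene whose surroundings on chromosome 8 hold many colon enhancers. In WNT10A, 10340 bp downstream of its TSS (chr2:218892401-218892600), density was 11.6, 16.3 and 20.2 in SW480 ERβ, 3.21, 2.18 and 7.17 in SW480 mock, 0.979, 1.59 and 2.78 in HT29 ERβ and 3.38, 2.16 and 1.84 in HT29 mock. The SW480 ERβ mean was 3.83 times that of SW480 mock, with an SD of 4.28 over the 3 ERβ libraries. In PRKAR2A (chr3:48770001-48770400, intron) it was 10.0, 15.1 and 11.6 against 1.53, 1.16 and 3.09, a 6.35-fold difference, and HT29 stayed at 0.379 to 0.954. In both, all 3 SW480 ERβ libraries lay above all 9 others.

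Signal without ERβ was not low at each of these. The strongest MYC member had 7.71, 17.1 and 17.2 in SW480 ERβ and 8.89, 8.93 and 8.85 in SW480 mock, so the groups overlapped. Its SW480 mock input was 3.44, the highest among the named members after 4.09 at another MYC member. The IGFBP3 member (chr7:46515801-46516200), 594127 bp upstream, had 4.93, 14.0 and 9.47 against 4.05, 6.96 and 6.60, with an input of 2.17 in SW480 mock, and these groups overlapped too. When libraries were scaled at regions bound in all 4 groups, the difference between SW480 ERβ and mock turned negative at both of these, at -0.21 and -0.16 on the log2 scale. Such members were unbound in SW480 mock by the limits on input or surroundings and not for lack of signal. HT29 signal was high at other MYC members. At the one 606256 bp downstream, HT29 mock had 8.47, 3.41 and 5.33 and SW480 ERβ 6.53, 10.7 and 10.7. At the one 147056 bp downstream, HT29 mock had 8.15, 3.61 and 5.01 and SW480 ERβ 7.55, 11.4 and 8.67. These groups overlapped at both, with HT29 mock rule scores of 0.9973 and 0.9608.

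The next 10 members were ranked by their difference from every other group, so low values in those groups follow from the choice, and PRKAR2A is among both sets. Their SW480 ERβ means were 4.22 to 12.2 and, PRKAR2A aside, every other group mean was 0.886 or lower. The member near MMADHC (chr2:149741601-149742000), a gene of cobalamin metabolism, lay 154023 bp upstream of its TSS. It had 8.57, 10.7 and 5.81 in SW480 ERβ and 0.576, 0.676 and 0.462 in SW480 mock, a 14.6-fold difference. The member near TRIM56 (chr7:101104801-101105000) had 6.31, 10.9 and 5.77 against 0.193, 0.607 and 0.663, or 15.7-fold. Other members of this set lay near LRTM1 (190213 bp away, 13.2-fold), near CST9 (2784 bp away, 10.3-fold) and near ZKSCAN2 (116856 bp away, 12.8-fold). Further ones lay in NTM (9.56-fold), a neural cell adhesion gene, in PIK3AP1 (9.39-fold), an adaptor of PI3K, and in PTPRG (11.3-fold), a receptor tyrosine phosphatase. The member in RSPH10B had the highest ratio to SW480 mock, 18.4, at a mean of 4.22, but this gene has a near-identical copy on chromosome 7, so its value is uncertain with uniquely mapped reads. At all 10, every SW480 ERβ library was above every other library, although replicate 3 was down to 2.01 in PTPRG.

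**Figure D3:**
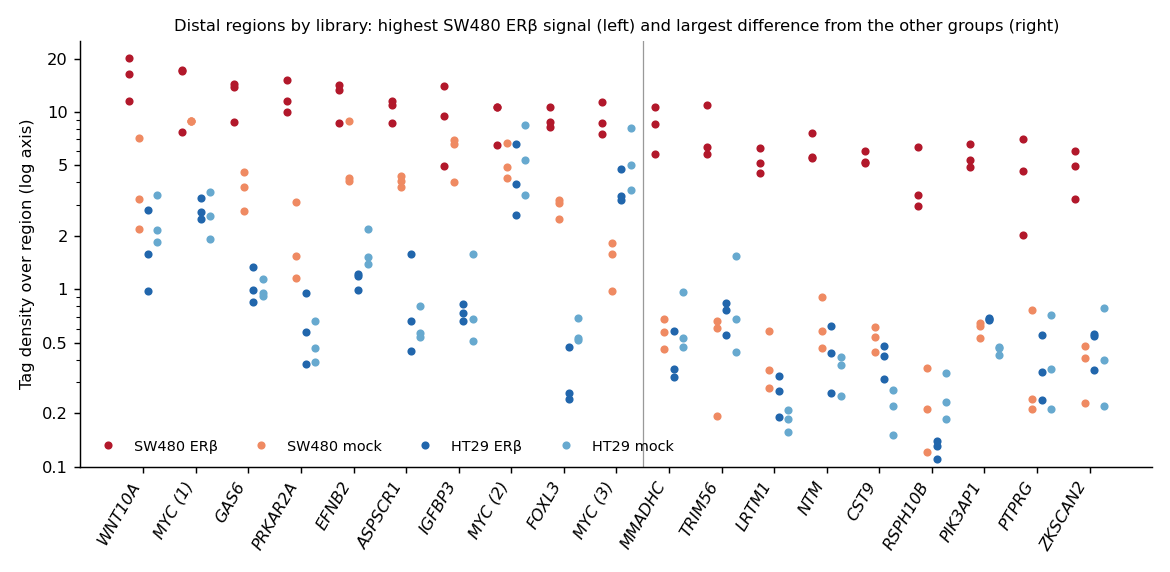
Tag density by library on a log axis at the 10 members with the highest SW480 ERβ mean, left, and at the 9 further members with the largest difference from the highest other group, right. Points are libraries, 3 per group. SW480 mock reaches 8.93 and HT29 mock 8.47 at left, whereas at right no library of another group exceeds 1.53.

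Sequence was not used in the choice. A κB match lay in the 200 bp about the summit in 1308 members, 54.7% (95% Clopper-Pearson interval 52.7 to 56.7%, which covers counting error only), against 4.87% of windows 1 kb to either side. The share was 76.2% (71.4 to 80.6%) in the 353 distal regions bound in all 4 groups, 56.5% (50.3 to 62.4%) in the 271 distal regions bound in SW480 mock and ERβ but not in HT29, and 53.7% (50.3 to 57.1%) in the 840 promoter regions bound in SW480 ERβ alone. Members thus held κB matches less often than shared distal regions, with intervals that did not meet, and about as often as the other 2 classes. Each summit was placed on the mean of the groups in which the region was bound. That was SW480 ERβ for members and all 4 groups for shared regions, and the part of this in the differences was not tested. The most frequent κB words were GGGAATTTCC, in 6.49% of members, GGGAAATTCC, in 6.03%, and GGGGAATTCC, in 4.60%. Counting overlapping matches as 1 site, 1129 members had 1 κB site, 179 had 2 or more and 1082 had none. Median SW480 ERβ density was 2.89, 2.98 and 2.88 in these 3 sets, values that the rule limits and from which nothing is read. By rule score, the share rose from 51.9% in the third of members with the lowest SW480 ERβ score to 58.7% in the third with the highest.

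κB matches were centred on the summit. Of 2052 matches within 200 bp, 48.6% lay within 25 bp of it, where 13.0% would lie if spread evenly. The same share was 24.2% for AP-1, 23.7% for RUNX, 21.1% for TEAD and 23.1% for ETS, and 13.1% for the ZEB and SNAI element CAGGTG. In distal regions bound in all 4 groups, about summits of the mean of all 4 groups, it was 65.9% for κB, 30.2% for AP-1 and 13.7% for RUNX. The last was from 73 matches. Thus RUNX matches gathered at the summits of the members, less closely than κB matches.

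**Figure D4:**
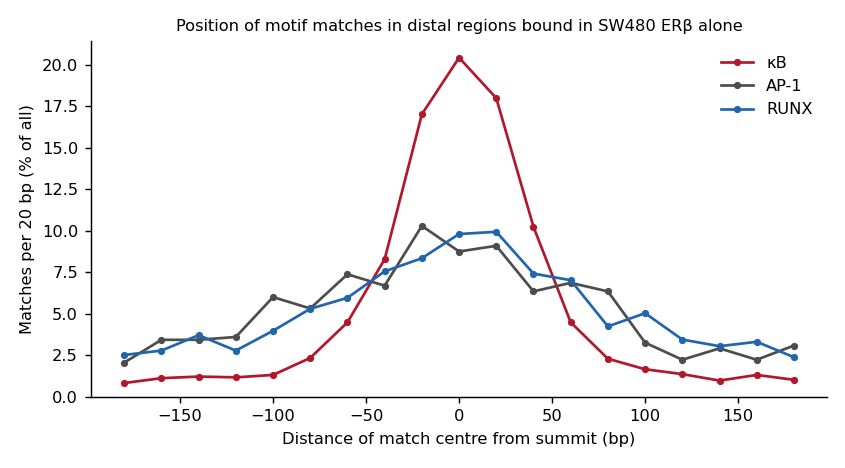
Share of all matches of each motif, per 20 bp, against distance of the match centre from the summit in bp, in the distal regions bound in SW480 ERβ alone. κB matches form a narrow peak at the summit, where 48.6% lie within 25 bp, and AP-1 (24.2%) and RUNX (23.7%) matches form broader ones.

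RUNX matches were more frequent in the 200 bp about the summit of the members than in those of shared regions. RUNX factors, with their partner CBFβ, bind enhancers in epithelial and blood cells. A match lay in 462 members, 19.3% (lower bound 17.8%), against 6.57% of flanks, 11.6% (8.47 to 15.4%) of distal regions bound in all 4 groups and 7.50% (5.81 to 9.49%) of the promoter regions. Distal regions bound in SW480 with and without ERβ had 25.5% (20.4 to 31.1%), so a raised RUNX share was shared by SW480 distal regions and not limited to those bound with ERβ alone. Over whole regions, whose median width was 200 bp for members and 400 bp for distal regions bound in all 4 groups, the RUNX shares were 20.3% and 19.5% (15.5 to 24.1%), so the difference did not hold over windows of unequal width. At equal widths the shares were 11.8% and 6.52% in 100 bp, and 26.4% (24.7 to 28.3%) in 400 bp against an interval of 13.2 to 21.3%. AP-1, the FOS and JUN dimer, went the other way, with 15.6% (14.1 to 17.1%) of members, 3.33% of flanks and 27.5% (22.9 to 32.5%) of distal regions bound in all 4 groups. TEAD, the partner of YAP, matched 16.8% of members and 7.87% of flanks, and TCF, the partner of β-catenin, 13.8% and 6.05%. ETS matched 7.62% against 2.01%. GATA and CDX matches were less frequent in the members than in flanks, at 6.69% against 9.33% and 5.19% against 7.07%. The members had a median GC content of 53.5% and their flanks 47.5%, and the part of base composition in these shares was not tested.

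**Figure D5:**
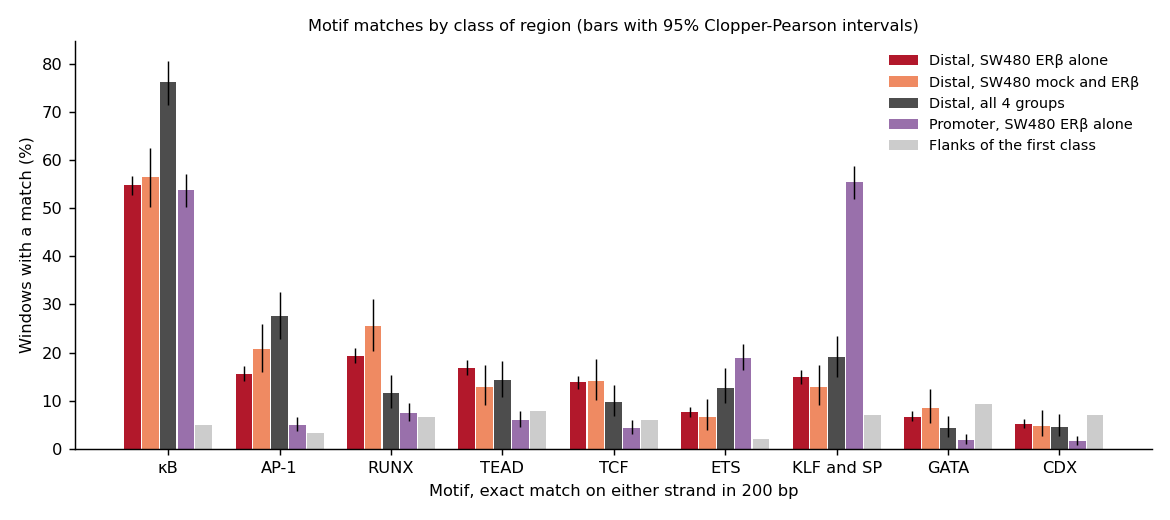
Percentage of 200-bp windows with at least 1 exact match, by motif and class of region. Error bars are 95% Clopper-Pearson intervals, and the palest bars are windows 1 kb to either side of the members. Members have less κB (54.7%) and AP-1 (15.6%) and more RUNX (19.3%) than distal regions bound in all 4 groups (76.2%, 27.5% and 11.6%).

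The estrogen response element, searched as the word GGTCA facing its own complement across 3 free bases, was found in 2 members, 0.0837% (0.0101 to 0.302%), near TRIM43B and near KCNU1, against 0.0209% of flanks. A form with the far word shortened to TG matched 4.02% of members and 3.49% of flanks. These letters being absent says nothing of whether ERβ was near.

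By motif, the levels are a description, since the rule used them. With a RUNX match the median density was 3.03 in SW480 ERβ, 1.13 in SW480 mock, 0.585 in HT29 ERβ and 0.646 in HT29 mock. With an AP-1 match, the same values were 2.94, 1.36, 0.824 and 0.952, and with none of the 3 motifs, at 647 members, 2.86, 1.25, 0.725 and 0.823. In these sets the HT29 medians were lowest with a RUNX match, a difference that was not tested. Of members where every other group scored under 0.5, 25.1% had a RUNX match, and of those where some other group scored 0.75 or more, 13.0% did. For κB these shares were 49.9% and 60.6%. κB and RUNX matches occurred together within 200 bp of the summit in 327 members, at a median distance of 66.5 bp from each other.

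The comparison of ERβ with mock in HT29 and that of the mock lines were not used as contrasts by the rule, although it kept the members unbound in HT29 ERβ, HT29 mock and SW480 mock. In HT29, limma called 0 of 6238 regions higher with ERβ and 0 lower (0% in each direction), and so 0 members. At an unadjusted p under 0.05 there were 122 of the 6238 regions, 98 of them members, and nothing is read from these. The median difference was -0.08 on the log2(density + 1) scale over the members and -0.15 over all regions. It was 0.02 over the members when libraries were scaled at regions bound in all 4 groups. All 3 same-numbered pairs had a lower member median with ERβ, as given by library above. With the replicate block, 13 of all regions were called lower and 0 members in either direction. An unadjusted p under 0.05 was then reached at 1171 regions, 225 of them members. The fit without the block keeps differences between replicate numbers in its spread, so its 0 calls do not show that HT29 was unchanged. With 1 library left out, 0 to 1 members were called lower. With each library set against the 1 input of its group, 15 members (0.628%) were called higher and 56 (2.34%) lower, against 0.256% and 1.41% of all regions. The same input served all 3 libraries of a group, so its error enters the difference with no spread measured, and nothing is read from these calls.

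Between the mock lines, the counts are a description, since the rule left out regions bound in either mock group while all regions include them. SW480 mock was higher at 615 members (25.7%), against 15.6% of all regions, and lower at 126 (5.27%), against 25.1% of all regions (limma, adjusted p under 0.05). The median difference was 0.19 over the members and -0.14 over all regions. With libraries scaled at regions bound in all 4 groups 1018 members (42.6%) were higher, against 28.6% of all regions. With 1 library left out, 394 to 728 members were higher, fewest without HT29 mock replicate 3, and 67 to 151 lower, fewest without SW480 mock replicate 1. When each library was set against the 1 input of its group, 264 members were higher (11.0%) and 244 lower (10.2%), against 7.61% and 33.7% of all regions. The error of that input was again not measured. The lowest SW480 mock library was above the highest HT29 mock library at 790 members (33.1%), against 19.7% of regions, and the highest was below the lowest HT29 one at 200 (8.37%), against 30.8%. RUNX matches lay in 24.9% of the members higher in SW480 mock and in 11.9% of those lower, and κB matches in 42.8% and 67.5%.

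The input moved with this comparison. Over 500 kb about each member, the median ratio of SW480 mock input to HT29 mock input was 1.38 at the members higher in SW480 and 0.968 at those lower, and 18 of the 126 lower members (14.3%) were on chromosome 8, against 3.97% of all members. Its part in the differences was not tested. The 5 members with the largest excess in SW480 mock lay near IGFBP3 and MAF and in ST8SIA1, ITPR2 and PRKAR1B. In ST8SIA1 (chr12:22102001-22102200) density was 4.45, 4.97 and 5.53 in SW480 mock and 0.845, 0.416 and 0.739 in HT29 mock, a difference of 1.85 on the log2(density + 1) scale. SW480 mock input there was 1.91, against 0.329 in HT29 mock. SW480 ERβ had 5.45, 7.30 and 7.02, 1.32 times SW480 mock. These 5 were thus members with p65 signal in SW480 in both conditions, and under scaling at regions bound in all 4 groups the ERβ difference was negative at all 5, from -0.41 near MAF to -0.16 near IGFBP3.

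The 5 members with the largest excess in HT29 mock were all on chromosome 8, near MYC and in TRAPPC9, DENND3, EXT1 and ASAP1. The one nearest to MYC, 71956 bp downstream, had 0.399, 0.35 and 0.510 in SW480 mock and 5.51, 3.89 and 3.44 in HT29 mock (a difference of -1.88 on the log2(density + 1) scale). SW480 ERβ had 3.36, 7.76 and 6.02 there, 13.6 times SW480 mock, and HT29 ERβ 5.89, 3.13 and 3.09. The HT29 mock input was 1.16 and the SW480 mock input 0.75. At this member the HT29 and SW480 ERβ libraries overlapped, and every SW480 mock library was below its input. In DENND3, HT29 mock had 13.1, 6.67 and 7.64, above the SW480 ERβ values of 2.50, 3.93 and 3.64, with a HT29 mock input of 2.01, which put the limit for HT29 mock above the signal of the second highest library.

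By position, 44.3% of the members lay in introns, 4.10% in exons and 51.6% between genes. The median distance to a TSS was 29681 bp, and 74.5% were over 10 kb away. Most members lay singly, with 7.87% within 10 kb of another member and 2.89% within 10 kb of a region bound in SW480 mock (2.95% of all regions). In distal regions bound in all 4 groups, and in those bound in SW480 mock and ERβ but not in HT29, values were similar. There 42.8% and 46.9% lay in introns, 65.2% and 78.6% over 10 kb from a TSS, and 7.37% and 8.49% within 10 kb of a member. These positions were thus not particular to the members. Chains of 3 members, each within 10 kb of the next, lay at 8 places. They spanned 8600 bp at the place named for AXIN2, a negative regulator of Wnt signalling, as its nearest gene. They spanned 11600 to 19200 bp at the other 7, among them RAD51B, TMEM163 and BAHCC1. Members per Mb ranged from 0.327 on X and 0.336 on chromosome 18 to 1.59 on chromosome 17 and 1.57 on chromosome 20. SW480 input density was 0.173 to 0.176 on chromosome 18 and 0.447 to 0.458 on chromosome 20, but 0.205 to 0.229 on chromosome 22 with 1.12 members per Mb and 0.380 to 0.391 on chromosome 13 with 0.516. The part of input density in these counts was not tested.

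A member was linked to a gene when it lay no more than 50 kb before its TSS or 2 kb after it. By this measure 1096 members were linked to 1426 protein-coding genes, or 7.27% of 19618, and 1294 were linked to none. Most genes, 1246, had 1 such member. The gene lists were chosen with earlier results known, and their shares are set beside this 7.27% as a description. Of 24 Wnt signalling genes, 8 (33.3%) had a member, namely AXIN1, CTNNB1, FZD1, LEF1, NKD2, TCF7, TCF7L2 and WNT7B. None of these 8 had a region bound in SW480 mock within the same range, as was so for 1280 of all 1426 genes with a member. Of 29 genes of integrins, laminins and cell migration, 9 (31.0%) had one, among them ITGB1, ITGB5, ITGB6, LAMA3, LAMA5 and PLAU. For the MAP kinase cascade it was 6 of 27 (22.2%), including the phosphatases DUSP1, DUSP4 and DUSP6. EGFR ligands and receptors had 3 of 12, EGFR, ERRFI1 and HBEGF. A gene with any bound region was also common on these lists, with 12 of the Wnt and 19 of the migration genes against 5041 of all genes.

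For classical NFκB genes, and then for further lists, the counts were as follows. Of 16 genes of NFκB subunits, inhibitors and feedback, 15 had a bound region of some kind but 2 (12.5%) had a member, NFKBID and TNIP1. Of 24 cytokines and chemokines 16 had a bound region and 3 had a member, CCL2, IL1A and IL32. TNF receptor signalling had 2 of 20, AP-1 and related factors 2 of 13, TGF-β and BMP signalling 3 of 21, the circadian clock 2 of 20 (NR1D1 and PER1), apoptosis 1 of 20, RUNX factors 1 of 4, epithelial-mesenchymal transition 1 of 10 and estrogen receptors with estrogen target genes 2 of 14. The strongest clock member, in reach of PER1, was the one near AURKB, whose HT29 mock rule score was 0.9999. Shares of lists this short move by several percent with 1 gene.

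The strongest linked members show the range. Upstream of CCL2 (chr17:34252401-34252800, 2673 bp) density was 6.35, 11.0 and 9.44 in SW480 ERβ, 1.54, 1.55 and 3.13 in SW480 mock and 0.275 to 1.62 in HT29. Upstream of DUSP4, a phosphatase that inactivates MAP kinases, it was 6.06, 6.30 and 7.82 in SW480 ERβ against 0.717, 1.42 and 3.39. In VDR, the vitamin D receptor (chr12:47896801-47897000), it was 5.24, 6.34 and 6.48 against 2.23, 1.78 and 1.44. In each of these the SW480 groups did not overlap. The TNFRSF1B member (chr1:12165401-12165600), of a gene for a TNF receptor, was lower, at 3.57, 3.30 and 4.41 against 0.898, 0.545 and 1.02. At RUNX3 (chr1:24970401-24970600, 5491 bp upstream) density was 1.73, 3.37 and 3.82 in SW480 ERβ and 0.789, 1.76 and 2.72 in SW480 mock, so the groups overlapped. The UBASH3A member (chr21:42412001-42412200), in reach of TFF1, a trefoil factor and estrogen target in breast cells, had 4.31, 3.68 and 10.5 against 0.655, 0.640 and 4.0, with replicate 3 highest in both groups. The member in reach of ID1, in HM13 (chr20:31573001-31573200), was the least different, at 3.63, 4.52 and 3.05 against 2.64, 2.22 and 2.33, with 2.31 to 4.37 in HT29 mock, and its difference turned to -0.11 on the log2 scale under scaling at regions bound in all 4 groups.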

How the data were processed

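p65 ChIP-Seq and input tracks were analysed for HT29 and SW480 cells with ERβ or mock. Per the study's methods, the authors aligned unique reads with STAR, and the submitters' processing notes name STAR, HOMER and hg38. How the deposited coverage signal was made is not described further in the sources used here. Its values were read as tag density per base scaled to a fixed total of tags, because all tracks sum to nearly the same total, and the lowest value in them is 0.05. Versions are not given in the sources used here. The labels give TNFα and the antibody for inputs too, and per the study's methods the ERβ inputs came from another series of libraries. Scaling to a fixed total hides depth and makes each density relative to the rest of its library.

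Signal was averaged over a 200-bp grid with Python 3.11.15, numpy 2.4.6 and pandas 2.3.3, and genes were taken from GENCODE 44. Groups were compared with limma 3.58.1 in R 4.3.3 on log2(density + 1) over all 6238 regions, with Benjamini-Hochberg adjustment, tested first on simulated data. Fold changes on this scale understate those of low regions. ERβ and mock libraries of the same number deviated together (correlations 0.137 to 0.314 in SW480 and 0.257 to 0.611 in HT29). Between different numbers the correlations were -0.236 to 0.0237 in SW480 and -0.451 to 0.300 in HT29. The counts given are from the fit without the replicate block, and the fit with it was an alternative. Shares have exact Clopper-Pearson intervals from scipy 1.17.1.

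Named members were the 10 with the highest SW480 ERβ mean, the 10 with the largest difference from the highest other group, the strongest linked to each gene list, those nearest to the limits, and the 5 largest called differences in each direction of the contrasts the rule did not use. The members and lists were chosen with earlier results of these data known. No column of other samples was present (0 left out). Some listed genes, gene lists and 1 sequence are not reported here.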

Additional observations from a re-analysis of the deposited data

How the results depend on the processing

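The number of members fell to 1572 with a minimum density of 3, to 1151 with 3 of 3 libraries required, and to 879 with libraries scaled at regions bound in all 4 groups, and ranged from 975 to 2545 with 1 library left out, lowest without SW480 ERβ replicate 2 and at 1055 without SW480 ERβ replicate 3. With 1 library left out, both remaining libraries of its group had to pass, a stricter rule for that group. The κB share was 45.7% in 100 bp, 58.7% in 400 bp, 71.9% with a looser and 49.9% with a stricter consensus, 58.0% at minimum density 3, 58.5% at 6-fold over input, 58.1% with the mock input, 52.1% with no other library past the limits, 57.6% with that scaling, and 51.7 to 55.9% with 1 library left out. The AP-1 share was 9.04%, 21.3% and 27.9% in 100 bp, in 400 bp and with a looser consensus, and the RUNX share 11.8%, 26.4% and 28.7%. The RUNX share was 22.1% with 3 of 3 libraries, 22.4% with no other library past the limits and 22.1% with that scaling. With 1 library left out it was 18.6 to 23.8%. The causes were not tested.

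For SW480 ERβ against mock, a contrast the rule used, 3422 regions higher (54.9%) and 1 lower became 713 and 43 with that scaling and 192 and 55 with quantile normalization, 6 were lower against own input and 0 with all 12 libraries in 1 fit, and the member median became 0.30 and 0.08. With 1 library left out, 1568 to 5519 regions were higher (5519 without SW480 ERβ replicate 1, 1568 without SW480 mock replicate 1) and 0 to 2 lower, and the member median was 0.70 to 1.01. In the same comparison, scaling and quantile normalization turned PRKAR1B to -0.38 and -0.50, IGFBP3 to -0.16 and -0.20, the strongest MYC member to -0.21 and -0.09, ST8SIA1 to -0.33 and -0.39, ITPR2 to -0.22 and -0.27, ALDH1A3 to -0.34 and -0.55, MAF to -0.41 and -0.50 and HM13 to -0.11 and -0.28, and quantile normalization alone turned RUNX3 to -0.19, TRAPPC9 to -0.20 and DENND3 to -0.13. In HT29, 16 regions were higher and 88 lower against own input (15 and 56 members), with 0 to 1 lower, members included, with 1 library left out. Own input is the 1 input of each group, whose spread the fit does not measure. The HT29 member median was 0.02 and 0.01 under scaling and quantile normalization, -0.14 against own input and -0.16 to 0.01 with 1 library left out, 0.01 being without HT29 mock replicate 1. Between the mock lines, 1786, 1718 and 475 regions were higher under scaling, quantile normalization and own input, 1018 members were higher under scaling, 264 higher and 244 lower against own input, and 81 lower with all 12 libraries in 1 fit. With 1 library left out, 645 to 1293 regions and 394 to 728 members were higher and 67 to 151 members lower.

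With the replicate block, SW480 regions higher were 4425 and lower 2, HT29 regions lower were 13 with 0 members, and it moved no other count of calls by over 1.5 times. An added alternative chosen after seeing the data, the ERβ input for both groups of a line, gave 2304 members. The share of soft-masked bases was not run.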
